A study of Mus musculus with 9 samples.

Results

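The 3 liver libraries of mice that lacked Fabp1 were compared with the 6 libraries, of 9 in all, from mice in which Fabp1 was intact. Libraries were assigned by the genotype in their labels, and no measured value was used to choose them. The Fabp1-null group, called DKO, came from C57BL/6J males that combined a germline deletion of Fabp1 with deletion of Mttp in the liver. The Fabp1-intact libraries came from 2 genotypes with 3 libraries each: males with floxed, undeleted Mttp (Mttp f/f, the control) and males with liver-specific deletion of Mttp (MttpLKO). Every group had been injected at the age of 14 days with the liver carcinogen diethylnitrosamine (DEN, 25 mg per kg), ate chow and was sampled at 6 months. Each library was made from oligo(dT)-selected liver RNA pooled from 3 mice, so that 9 mice stand behind DKO and 18 behind the intact group. The tests therefore measure the spread between pools, and that between single mice is not known. Mice with Fabp1 deleted and Mttp intact were not analysed here, so the loss of Fabp1 is seen here only together with that of hepatic Mttp. The labels do not give the Cre line that deleted Mttp, whether littermates were used, or whether the RNA came from tumour or from tissue between tumours.

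Fabp1 encodes the liver fatty acid binding protein, a small and very abundant protein of the hepatocyte and enterocyte cytosol that carries long-chain fatty acids, acyl-CoA and other lipids to sites of oxidation, esterification and nuclear signalling. It is itself a target of PPARα, the nuclear receptor that fatty acids activate. Mttp encodes microsomal triglyceride transfer protein, which loads lipid onto apolipoprotein B in the endoplasmic reticulum (ER). Without it hepatocytes make little VLDL and store triglyceride in droplets.

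The libraries held 23268389 to 23429588 counts in DKO, 24995426 to 27080442 in control and 26362408 to 27918197 in MttpLKO. DKO libraries were the shallowest, and this difference of depth and the genotype cannot be told apart. Of 41388 genes in each table, 14192 had at least 0.5 CPM (counts scaled to the library total) in at least 3 libraries and were tested. Of 14 hepatocyte markers all 14 were tested, with a summed level of 95822 to 109944 CPM in control, 100193 to 114837 in MttpLKO and 72739 to 106168 in DKO. The lowest sum was that of DKO 1. Of the intact libraries MttpLKO 3 stood away from the rest in a principal component analysis (50.2 on component 1, where the other 8 ranged from -18.6 to 15.9), and its B and plasma cell markers summed to 1012 CPM against 136 to 249 elsewhere.

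The deleted genes checked the labels. Fabp1 (ENSMUSG00000054422) had 6850.1, 6100.3 and 6270.4 CPM in control, 3358, 4002 and 4954 in MttpLKO and 50.3, 68 and 77.5 in DKO. Its groups did not overlap, and DKO retained a low level (log2 fold change -6.30 ± 0.22 SE, adjusted p = 1.32e-07). Which exons the Fabp1 deletion removes was not given in the sources used here. Per length, the authors' deposited RPKM of Fabp1 was 11572 ± 653 in control, 7386 ± 1692 in MttpLKO and 118 ± 19.6 in DKO (mean ± SD, n = 3 libraries). Mttp had 181, 80.4 and 69.8 CPM in control, 9.72, 6.15 and 6.23 in MttpLKO and 5.78, 3.26 and 4.5 in DKO. It was low in both genotypes that carry the deletion, with log2 fold changes of -4.61 against control (adjusted p = 0.000403) and -0.70 against MttpLKO (adjusted p = 0.621). Mttp therefore counts below among the genes of DKO only through the distance from control.

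DKO differed from the 6 intact libraries in 68 genes, 47 higher (0.331% of the genes tested) and 21 lower (0.148%), together 0.479% (edgeR quasi-likelihood F test on DKO against the mean of the 2 intact genotypes, Benjamini-Hochberg adjusted p under 0.05). Such a gene is called in what follows. A called gene set DKO apart when it moved in the same direction against control and against MttpLKO and no DKO library fell within the range of the 6 others. This held for 53 genes, 37 higher (0.261%) and 16 lower (0.113%), together 0.373% of those tested, of which 34 differed by 2-fold or more. Non-overlap alone was reached by 754 of all genes tested (5.31%), 395 from above (2.78%) and 359 from below (2.53%). Each single comparison gave a similar number of calls: 49 against control (0.345%) and 59 against MttpLKO (0.416%), both with the same 3 DKO libraries. Of the 53 genes, 18 (0.127% of all tested) also passed in each single comparison, 16 passed against control alone, 10 against MttpLKO alone and 9 in neither. A fit that treated the intact libraries as 1 group, so that the distance between control and MttpLKO entered the spread, called 25 genes, all among the 53. Without MttpLKO 3 the calls rose from 68 to 131 and the genes set apart from 53 to 118, among them all 53. Without DKO 1 they fell to 39 and 33, and without DKO 3 to 36 and 31. Without control 2, control 3, MttpLKO 2 or DKO 2 the calls were 38, 43, 42 and 42.

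**Figure D1:**
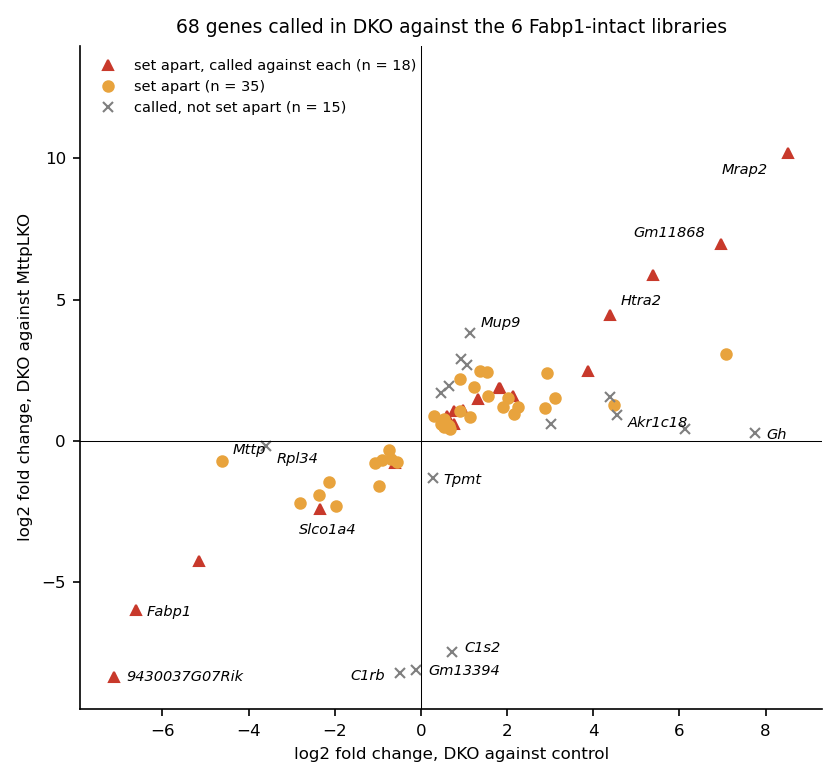
Log2 fold change in DKO against control (x axis) and against MttpLKO (y axis) for the 68 called genes. Both axes use the same 3 DKO libraries. Red triangles are the 18 genes that passed in both, orange circles the other 35 that set DKO apart, and grey crosses the 15 called genes that did not. Fabp1 lies at -6.62 and -5.98, Mrap2 at 8.53 and 10.19, and Gm13394 at -0.11 and -8.13, near 0 on the control axis.

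The 18 genes that passed in both single comparisons comprised 13 higher and 5 lower. The higher ones were Mrap2, Gm11868, 2310057J18Rik, Htra2, Wfdc12, Nt5e, Slc35f2, Zfp949, Cep162, Tmem98, Dio1, Rarres1 and Bckdhb. The lower ones were Fabp1, 9430037G07Rik, 1010001B22Rik, Slco1a4 and Abca8b. All but 1010001B22Rik, Slco1a4 and Abca8b stayed called against the intact libraries with any 1 library left out and under every other setting, wherever they were tested. The exceptions were 1010001B22Rik without DKO 2 or DKO 3 (highest adjusted p = 0.0688, without DKO 3), Slco1a4 without DKO 1, DKO 2 or DKO 3 (highest adjusted p = 0.07, without DKO 3) and Abca8b without DKO 1 or DKO 2 (highest adjusted p = 0.064, without DKO 1). The only other called gene as stable was Cyp2d41-ps. Mrap2, Gm11868 and 2310057J18Rik passed the filter of 0.5 CPM through the DKO libraries alone. They were therefore not tested with a DKO library left out, and their calls and non-overlap are not independent of that selection.

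**Figure D2:**
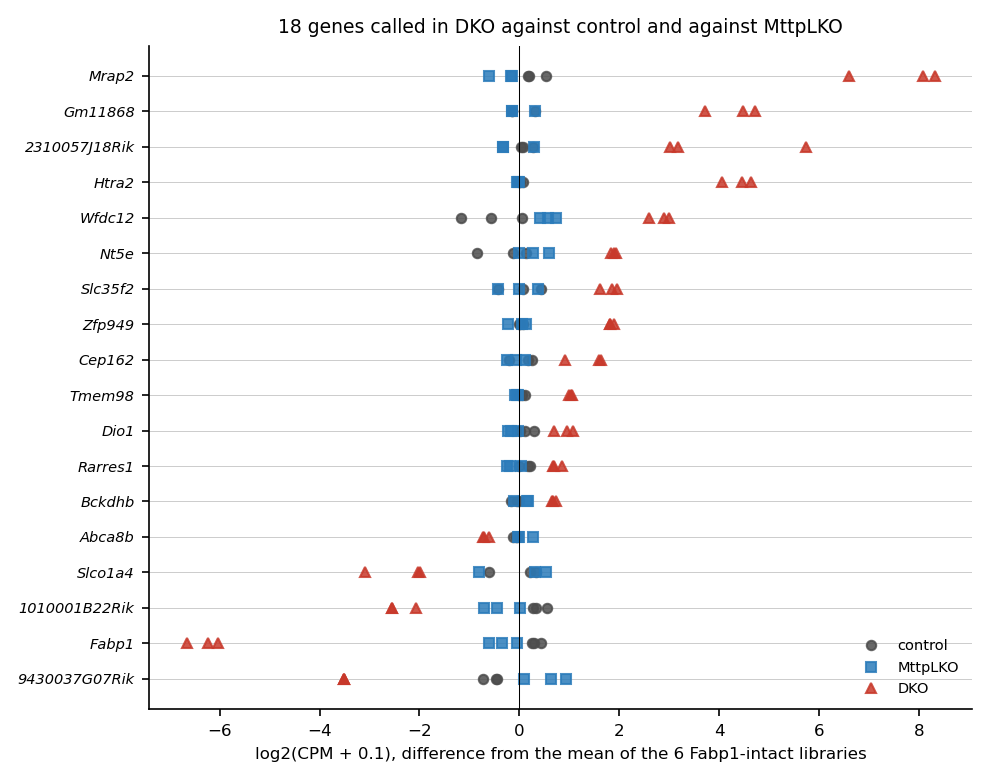
Level of the 18 genes in each of the 9 libraries, as log2(CPM + 0.1) minus the mean of the 6 Fabp1-intact libraries (x axis). Grey circles are control, blue squares MttpLKO and red triangles DKO. In each row the 3 DKO libraries lie to one side of the 6 others, closest for Abca8b, Bckdhb and Rarres1.

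Htra2, a serine protease of the mitochondrial intermembrane space that promotes apoptosis when released to the cytosol, had the smallest adjusted p in the comparison. Its level was 10.1, 10.3 and 10.8 CPM in control, 9.79, 9.94 and 10.2 in MttpLKO and 226, 171 and 256 in DKO. The 6 intact libraries lay between 9.79 and 10.8 CPM and every DKO library was far above them, a 21.4-fold difference (log2 fold change 4.42 ± 0.12 SE, adjusted p = 1.1e-08). Per length, the deposited RPKM of Htra2 was 3.76 ± 0.18 in control, 3.57 ± 0.19 in MttpLKO and 79.4 ± 15.3 in DKO (mean ± SD, n = 3). In the deposited coordinates Htra2 lies on chromosome 6, 11.85 Mb from Fabp1, the gene deleted in DKO. It overlaps Aup1 by 621 bases and Loxl3 by 1297 bases, both on the opposite strand. Neither partner was called: the log2 fold change was -0.01 for Aup1 (adjusted p = 0.979) and -0.09 for Loxl3 (adjusted p = 0.915). How the counting treated strand is not stated in the labels or tables, so reads within the overlaps cannot be assigned to one strand.

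Within 15 Mb on either side of Fabp1, 123 genes were tested and 2 were called, Fabp1 itself and Htra2. Chromosome 6 as a whole had 710 tested genes, 8 called (0.479% of all genes) and 6 set apart (0.373%). Plekha8, which transfers glycolipids at the Golgi, and its neighbour Fkbp14, a peptidyl-prolyl isomerase of the ER, lie 16.6 Mb before Fabp1. Plekha8 fell to 10.9, 10.9 and 12.5 CPM in DKO from 16.6 to 21.5 in the intact libraries (log2 fold change -0.66 ± 0.11 SE, adjusted p = 0.033). Fkbp14 fell to 4.18, 3.08 and 3.16 CPM from 5.24 to 8.18 (log2 fold change -0.92 ± 0.17 SE, adjusted p = 0.0424). These genes overlap each other by 2234 bases on opposite strands, so their counts may share reads. Leaving out 1 library ended the call for Plekha8 without any 1 library but MttpLKO 3 (highest adjusted p = 0.154, without DKO 1) and for Fkbp14 without any 1 library but MttpLKO 1 or MttpLKO 3 (highest adjusted p = 0.172, without DKO 3).

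The densest group of changes lay on chromosome 9, on another chromosome than the targeted Fabp1. In windows of 10 Mb, the one from 80 to 90 Mb held 30 tested genes, of which 8 were called and all 8 set DKO apart (26.7%, against 0.479% over all genes). The window was picked after the values were seen, and Mrap2, among the 8, passed the filter of 0.5 CPM through the DKO libraries alone. The 8 genes spanned chr9:83548327-88599516 in the deposited coordinates, 5.05 Mb with 20 tested genes, 12 of which were not called. They comprised Sh3bgrl2, Bckdhb, Mrap2, Cep162, Nt5e and Zfp949, which were higher in DKO, and Me1 and 9430037G07Rik, which were lower. The strain in which the Fabp1 and Mttp alleles were made, and the strain of origin of this window and of the one around Htra2 in the DKO mice, were not given in the sources used here and were not tested.

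Mrap2 encodes an accessory protein of melanocortin receptors, studied mainly in the hypothalamus. It was close to absent in the intact livers, with 9 counts over the 6 libraries, and had 2468 counts over the 3 DKO libraries. Scaled by library, the ratio was 627 with a 95% counting interval of 330 to 1.37e+03 (exact, counting error only). The DKO libraries had 48.4, 14.6 and 41.1 CPM, lowest in DKO 2, and no intact library exceeded 0.121 CPM (log2 fold change 9.36 ± 0.47 SE, adjusted p = 3.44e-06). Mrap2 passed the filter of 0.5 CPM through the DKO libraries alone, so its call and its non-overlap are not independent of that selection. Cep162, which builds the base of the cilium and adjoins Mrap2, had 16.2, 9.77 and 15.7 CPM in DKO against 4.31 to 6.14 (log2 fold change 1.41 ± 0.18 SE, adjusted p = 0.00548). It too was lowest in DKO 2 within the group.

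Nt5e is the ecto-nucleotidase that makes extracellular adenosine from AMP. It had 2.35, 3.9 and 4.73 CPM in control, 5.2, 4.27 and 6.48 in MttpLKO and 15.5, 16.6 and 16.3 in DKO. The DKO pools were tightly grouped and all above the intact range, 3.65-fold higher (log2 fold change 1.87 ± 0.19 SE, adjusted p = 0.00138). Zfp949, a zinc finger protein, had 30.9, 30.9 and 32.3 CPM in DKO against 7.33 to 9.46 (log2 fold change 1.85 ± 0.10 SE, adjusted p = 4.18e-06). Bckdhb, a subunit of the branched-chain keto acid dehydrogenase that commits valine, leucine and isoleucine to oxidation, had 135, 137 and 142 CPM against 76.5 to 97.2 (log2 fold change 0.69 ± 0.09 SE, adjusted p = 0.00611). Sh3bgrl2 had 48.1, 53.5 and 41.2 CPM against 31 to 36, a smaller difference (log2 fold change 0.53 ± 0.10 SE, adjusted p = 0.0424) whose call ended without any 1 library but MttpLKO 3 or DKO 3 (highest adjusted p = 0.158, without DKO 1).

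Me1 is the cytosolic malic enzyme, a source of NADPH for fatty acid synthesis. Its level was 91.4, 84.4 and 78.1 CPM in control, 105, 92.6 and 93.4 in MttpLKO and 62.1, 56.6 and 53.1 in DKO. All DKO libraries were below all others, a 1.58-fold difference (log2 fold change -0.66 ± 0.09 SE, adjusted p = 0.0106), with log2 fold changes of -0.56 against control (adjusted p = 0.0602) and -0.76 against MttpLKO (adjusted p = 0.0106). The call ended without control 2, DKO 2 or DKO 3 (highest adjusted p = 0.0756, without DKO 3). The transcript 9430037G07Rik, which has no assigned function in the tables, had 53 counts in control, 130 in MttpLKO and 0 in DKO. Against a floor of 3 counts over the 3 DKO libraries the ratio was 26.7, and by the exact 95% counting limit it was at least 21.5-fold lower (adjusted p = 0.00336).

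**Figure D3:**
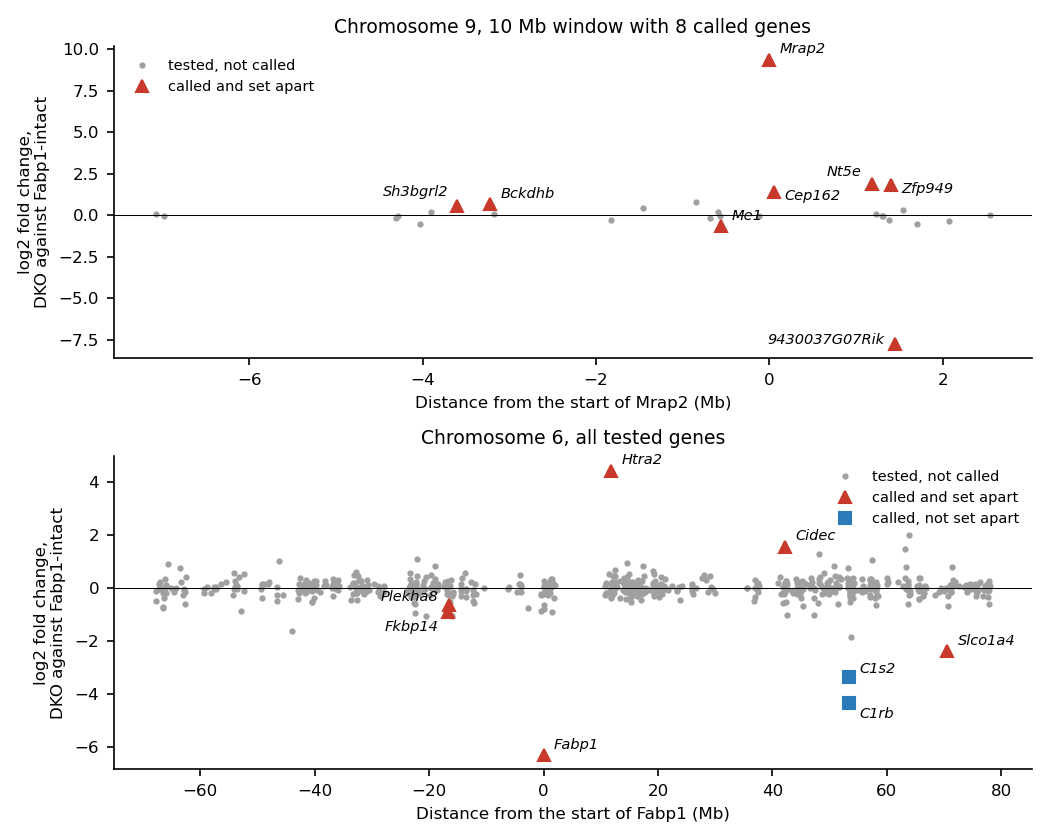
Log2 fold change in DKO against the Fabp1-intact libraries (y axis) by distance in Mb from the start of Mrap2 in the chromosome 9 window (upper panel) and from the start of Fabp1 along chromosome 6 (lower panel). Red triangles are called genes that set DKO apart, blue squares called genes that did not, and grey points the other tested genes. The upper panel shows 8 called genes among 30, and the lower panel Htra2 at 4.42 and Fabp1 at -6.30.

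Most genes of protein folding in the ER had higher values in DKO, and a few were called. The unfolded protein response raises chaperones, disulfide isomerases and degradation factors when unfolded protein accumulates in the ER, through sensors that include Ern1 and Atf6. Of 25 listed genes, all tested, 3 were called by edgeR, all higher (Derl3, Pdia6 and Dnajb11), against 0.331% of all genes called higher. DESeq2 called 10, all higher, against 1.31% of all genes that it called higher. The fitted value was above 0 for 22 of 25 (48.3% of all genes), 13 were higher at an unadjusted p under 0.05 (6.16% of all genes), and in 7 no DKO library overlapped the intact range from above (2.78% of all genes). The median log2 fold change was 0.46, against -0.01 over all genes. It was 0.49 against control and 0.22 against MttpLKO, and 0.27 in MttpLKO against control. Without DKO 1 the median was 0.27 and none of the 3 was called. Without MttpLKO 3 it was 0.50, with 23 of 25 above 0.

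Derl3 belongs to the machinery that moves misfolded proteins out of the ER for degradation. It had 4.45, 4.05 and 4.62 CPM in control, 6.26, 5.7 and 6.56 in MttpLKO and 24.9, 7.71 and 20.8 in DKO. DKO 1 and DKO 3 were several times above the intact libraries and DKO 2 just above them (log2 fold change 1.78 ± 0.27 SE, adjusted p = 0.0172). Pdia6, a protein disulfide isomerase, had 189, 174 and 159 CPM in control, 189, 165 and 210.0 in MttpLKO and 282, 241 and 294 in DKO, without overlap (log2 fold change 0.59 ± 0.11 SE, adjusted p = 0.0424). Dnajb11, a co-chaperone of the Hsp70 of the ER, had 73.9, 64.3 and 62.8 CPM in control, 75.7, 78.1 and 88.1 in MttpLKO and 115, 92.2 and 115 in DKO, where DKO 2 was close to the highest intact library (log2 fold change 0.55 ± 0.10 SE, adjusted p = 0.0498). Dnajb11 sat at the threshold. Against MttpLKO alone none of the 3 passed (adjusted p of 0.113 for Derl3, 0.157 for Pdia6 and 0.276 for Dnajb11). Against control alone Derl3 and Dnajb11 passed (adjusted p of 0.0384 and 0.0463) and Pdia6 did not (adjusted p = 0.0767). Leaving out 1 library ended the call for Derl3 without control 2, control 3, MttpLKO 2, DKO 1 or DKO 3 (highest adjusted p = 0.106, without DKO 1), for Pdia6 without any 1 library but MttpLKO 3 (highest adjusted p = 0.169, without DKO 1) and for Dnajb11 without any 1 library but MttpLKO 3 or DKO 2 (highest adjusted p = 0.214, without DKO 1).

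Among members that were not called, Sdf2l1 had 64.6, 43.5 and 50.3 CPM in DKO against 21.9 to 37 (adjusted p = 0.0635) and Pdia3 had 527, 390.5 and 476 against 292 to 378 (adjusted p = 0.0829). Neither overlapped. Hspa5, the Hsp70 of the ER, had 418, 310.0 and 306 CPM in control, 464, 486 and 611 in MttpLKO and 732, 476 and 585 in DKO. Its DKO 2 and DKO 3 values lay within the MttpLKO range, and it had log2 fold changes of 0.79 against control (adjusted p = 0.137) and 0.20 against MttpLKO (adjusted p = 0.784). The sensors Ern1 and Atf6 and the transcription factor Xbp1 were not called, with log2 fold changes of -0.17 for Ern1, 0.18 for Atf6 and 0.11 for Xbp1 (adjusted p of 0.703, 0.649 and 0.874). Against control alone that of Atf6 was 0.37 (adjusted p = 0.402). Plasma cells are rich in such transcripts: the 12 tested of 16 B and plasma cell markers summed to 163 to 249 CPM in DKO, 136 to 161 in control and 238 to 1012 in MttpLKO, with none at 0 in all libraries. MttpLKO 3, with the highest sum, had 6.56 CPM of Derl3. The part of plasma cells in the ER result was not tested. In bulk liver RNA, more cells of a type and more RNA per cell cannot be told apart.

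The promoters of these genes were read because many ER chaperones carry the ER stress element, a CCAAT box and a CCACG box at a fixed spacing. The 3 called members and Hspa5 follow, each as the 250 bases before the RefSeq start (GRCm38.p6), 5′ to 3′ on the gene's strand, with the element in capitals.
Derl3: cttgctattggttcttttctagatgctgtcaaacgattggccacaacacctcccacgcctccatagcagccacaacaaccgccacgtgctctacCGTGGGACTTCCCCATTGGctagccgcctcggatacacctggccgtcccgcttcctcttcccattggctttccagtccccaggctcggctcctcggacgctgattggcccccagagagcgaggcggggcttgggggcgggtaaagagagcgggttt
Pdia6: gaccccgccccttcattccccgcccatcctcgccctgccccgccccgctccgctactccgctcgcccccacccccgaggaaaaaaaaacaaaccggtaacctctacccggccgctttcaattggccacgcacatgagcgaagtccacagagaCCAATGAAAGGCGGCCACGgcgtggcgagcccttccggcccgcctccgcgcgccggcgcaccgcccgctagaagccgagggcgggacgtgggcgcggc
Dnajb11: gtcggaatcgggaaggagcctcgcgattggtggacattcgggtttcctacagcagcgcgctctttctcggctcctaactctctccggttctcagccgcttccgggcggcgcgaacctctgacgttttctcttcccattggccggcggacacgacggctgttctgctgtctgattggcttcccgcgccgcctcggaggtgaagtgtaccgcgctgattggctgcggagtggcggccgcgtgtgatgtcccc
Hspa5: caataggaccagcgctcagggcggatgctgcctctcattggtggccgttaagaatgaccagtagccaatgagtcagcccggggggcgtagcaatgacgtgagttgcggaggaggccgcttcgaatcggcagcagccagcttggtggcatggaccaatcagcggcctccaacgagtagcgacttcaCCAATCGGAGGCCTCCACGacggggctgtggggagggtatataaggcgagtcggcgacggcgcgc
The letters searched were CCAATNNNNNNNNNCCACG on both strands. Derl3 holds the element once, on the reverse strand 137 bases before the start, Pdia6 once, 79 bases before it, and Hspa5 once, 46 bases before it. Dnajb11 has no match in this window. The promoter of Sdf2l1, which was not called, was searched in the same way and has no match either. The Derl3 promoter lies at chr10:75893148-75893397, that of Pdia6 at chr12:17266339-17266588, that of Dnajb11 at chr16:22857595-22857844 and that of Hspa5 at chr2:34771840-34772089, all on the plus strand. Of the 25 list members 22 had a promoter in the table and 9 of these held the element (40.9%), against 35 of all 27025 promoters of this length (0.13%). Among the 27 genes with a promoter that were higher and set DKO apart, 2 held it (7.41%), Derl3 and Pdia6. The list was assembled from known ER stress genes, so its share describes the list and not the response.

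With Fabp1 gone, no other fatty acid carrier was called. The list of cytosolic fatty acid, acyl-CoA and sterol carriers had 14 members, of which 10 were tested, 0 called and 1 higher at an unadjusted p under 0.05, with a median log2 fold change of 0.09 (0.09 to 0.21 with 1 library left out). Scp2, the peroxisomal sterol carrier protein that also binds fatty acids, had 1104, 937 and 837 CPM in control, 1099, 912 and 786 in MttpLKO and 1268, 1015 and 1281 in DKO, with overlapping groups (log2 fold change 0.33 ± 0.14 SE, adjusted p = 0.398). Fabp2, the intestinal form, had 42.1, 46.4 and 56.6 CPM in control, 27.1, 26.1 and 26.9 in MttpLKO and 29.6, 56.5 and 25.7 in DKO with DKO 2 at the level of control and the other 2 DKO libraries near MttpLKO (adjusted p = 0.956). Dbi, the acyl-CoA binding protein, had 747, 780.5 and 739 CPM in DKO against 668 to 786. Per length, the deposited RPKM in DKO was 345 for Scp2, 536 for Dbi, 38.9 for Fabp2, 17.8 for Fabp4 and 1.66 for Fabp5, beside the 11572 of Fabp1 in control.

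Genes for the oxidation of fatty acids, many of them targets of PPARα, had higher values in DKO without a call. Of 45 listed genes 43 were tested and 0 called by edgeR. The fitted value was above 0 for 36 of 43 (48.3% of all genes), 14 were higher and 1 lower at an unadjusted p under 0.05 (6.16% and 5.32% of all genes), and 7 did not overlap from above (2.78% of all genes). The median log2 fold change was 0.21, and from 0.17 to 0.29 with 1 library left out. DESeq2 called 8, all higher, against 1.31% of all genes that it called higher. Ehhadh, the bifunctional enzyme of peroxisomal β-oxidation, had 211, 222 and 239 CPM in control, 289, 241 and 209 in MttpLKO and 299, 392 and 461 in DKO. DKO 1 was only just above the highest intact library (log2 fold change 0.71 ± 0.14 SE, adjusted p = 0.0635). Ucp2, an uncoupling protein of the inner mitochondrial membrane, had 41.9, 46 and 62.5 CPM in control, 33.9, 41.7 and 66.7 in MttpLKO and 77.9, 95.3 and 102 in DKO, also without overlap (log2 fold change 0.91 ± 0.20 SE, adjusted p = 0.0866). The classical target Cyp4a14 had 169.9, 490.2 and 954 CPM in control, 914, 1464 and 782 in MttpLKO and 828, 1549 and 2042 in DKO, with wide overlap (adjusted p = 0.428). Acsf2, an acyl-CoA synthetase outside the list, was called, at 235, 256 and 241 CPM against 153 to 183 (log2 fold change 0.52 ± 0.09 SE, adjusted p = 0.0329), but not without any 1 library but MttpLKO 1 or MttpLKO 3 (highest adjusted p = 0.112, without control 3).

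Of the proteins that coat and enlarge lipid droplets, Cidec was called. Of 24 listed genes 23 were tested and 1 was called (0.331% of all genes were called higher). DESeq2 called 3, all higher (1.31% of all genes). A value above 0 was found for 16 (48.3% of all genes), and the median log2 fold change was 0.13 (0.11 to 0.23 with 1 library left out). Cidec promotes the fusion of droplets into larger ones. It had 8.7, 19.7 and 19.2 CPM in control, 5.35, 7.91 and 6.23 in MttpLKO and 31.2, 30.9 and 27.5 in DKO. It was lowest in MttpLKO, intermediate in control and highest in DKO (log2 fold change 1.56 ± 0.22 SE, adjusted p = 0.0101), with log2 fold changes of 0.91 against control (adjusted p = 0.215) and 2.20 against MttpLKO (adjusted p = 0.00592). The call ended without DKO 1 or DKO 2 (adjusted p of 0.0534 and 0.0544). Its paralog Cidea had 1.46, 4.54 and 3.53 CPM in control, 1.02, 0.442 and 0.553 in MttpLKO and 9.64, 16.5 and 2.32 in DKO. DKO 3 lay within the control range, and Cidea missed the threshold (log2 fold change 2.69 ± 0.51 SE, adjusted p = 0.0526). Plin2, the main droplet coat of hepatocytes, had 355, 462 and 547 CPM against 287 to 454 (adjusted p = 0.519). Cidec and Cidea are also adipocyte genes. Of 12 adipocyte markers 8 were tested, and 7 had a value above 0 (48.3% of all genes). At an unadjusted p under 0.05, 5 were higher (6.16% of all genes). By edgeR 1 was called and by DESeq2 3, all higher (0.331% and 1.31% of all genes). The marker sum was 1854 to 3355 CPM in DKO, 2134 to 2820.3 in control and 2549 to 3786 in MttpLKO. Adipoq, Plin1 and Retn were below the filter and Lep was at 0 in every library. The adipocyte gene Cfd had 11.6, 57 and 2.27 CPM in DKO and 1.29 to 7.56 elsewhere, highest in DKO 2. The part of adipocytes in the Cidec result was not tested.

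In de novo lipogenesis 18 of 19 listed genes were tested, and Me1 was the one called (0.148% of all genes were called lower). The median log2 fold change of the list was -0.17 (-0.30 to -0.10 with 1 library left out). Scd1, the desaturase that makes oleate, had 1022, 648 and 722 CPM in DKO within the 517 to 2125 of the intact libraries. The other lists of this kind had 0 calls by edgeR. Triglyceride synthesis, with 17 genes, had a median of 0.04 (-0.03 to 0.05 with 1 library left out), and 3 members were higher and 2 lower at an unadjusted p under 0.05. Fatty acid uptake and activation, with 19 of 20 tested, had a median of 0.16 (0.11 to 0.25 with 1 library left out), with 2 higher and 2 lower. Cholesterol synthesis, with 22 genes, had a median of -0.04 that was -0.29 without DKO 1 and 0.17 without MttpLKO 1, with 0 either way. VLDL assembly and apolipoproteins, with 26 genes, had a median of -0.07 (-0.23 to 0.02 with 1 library left out), with 3 higher and 5 lower. Over all genes, 6.16% were higher and 5.32% lower at an unadjusted p under 0.05, and DESeq2 called 286 of 14184 (186 higher, 100 lower). In the order given, DESeq2 called 3, 1, 0 and 6 members of these lists. Apoa4, an apolipoprotein, came nearest in the last, at 81.3, 87.7 and 95 CPM in control, 52.1, 56.5 and 64.3 in MttpLKO and 84.1, 137 and 126 in DKO (adjusted p = 0.0668). Agpat2 and Gpd1, enzymes on the way to triglyceride, had DKO values above all intact ones (284 to 327 against 179 to 264 CPM, and 431 to 609 against 288 to 406) without passing (adjusted p of 0.187 and 0.175). Dgat1 and Tm6sf2, of the same triglyceride list, had DKO values below all intact ones without passing (adjusted p of 0.293 and 0.118). Their levels were 29.9 to 33.6 against 36.2 to 47.9 CPM, and 36.6 to 38.3 against 42.9 to 66.2.

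**Figure D4:**
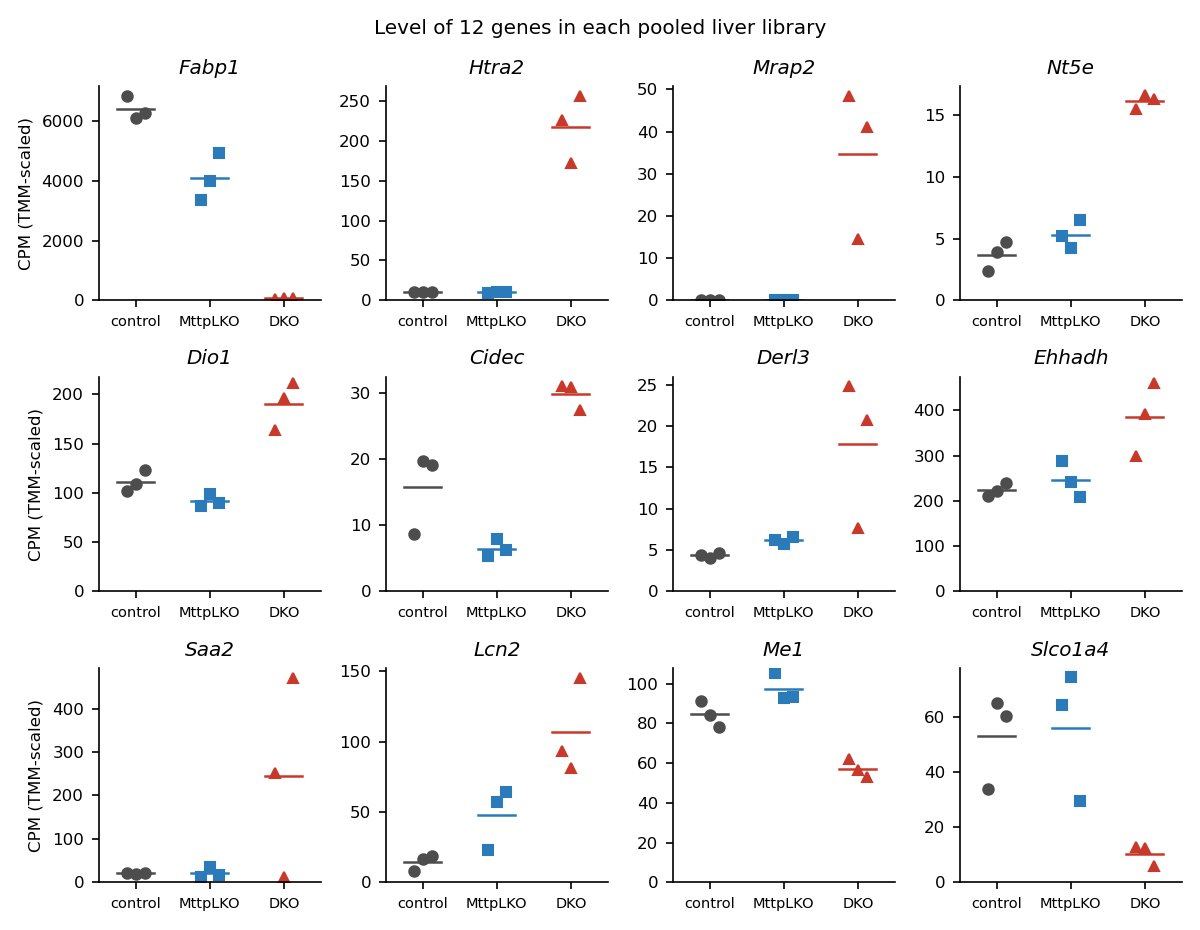
Level of 12 genes in each library, in TMM-scaled CPM on a linear axis from 0. Each point is 1 pool of 3 mice and each bar the mean of the 3 libraries of a genotype. Htra2 is at about 10 CPM and Mrap2 near 0 in all 6 intact libraries, Saa2 is high in DKO 1 and DKO 3 alone, and Ehhadh and Saa2 did not pass the test.

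Lcn2, the siderophore-binding acute phase protein, was highest in DKO. It had 8.13, 16.4 and 18.8 CPM in control, 23, 56.9 and 64.1 in MttpLKO and 93.4, 81.2 and 145 in DKO. DKO lay above all other libraries (log2 fold change 2.02 ± 0.32 SE, adjusted p = 0.0197), with log2 fold changes of 2.88 against control (adjusted p = 0.0148) and 1.15 against MttpLKO (adjusted p = 0.361). The call against the intact libraries ended without control 2, DKO 1, DKO 2 or DKO 3 (highest adjusted p = 0.0924, without DKO 3). Of 39 acute phase genes 38 were tested and 1 was called (0.331% of all genes were called higher). DESeq2 called 5 higher and 1 lower (186 and 100 of 14184 over all genes). A value above 0 was found for 33 (48.3% of all genes), and 15 were higher at an unadjusted p under 0.05 (6.16% of all genes). The median log2 fold change was 0.34, and it was 0.13 without DKO 3. The largest values belonged to serum amyloid A. Saa2 had 22.2, 20.4 and 22.4 CPM in control, 12.9, 35.9 and 17.9 in MttpLKO and 251, 12.3 and 470.4 in DKO, and Saa1 had 64.4, 55.6 and 53.1 CPM in control, 33.7, 117 and 41.2 in MttpLKO and 530.4, 46.3 and 735 in DKO. In both, DKO 1 and DKO 3 were high (adjusted p of 0.0635 and 0.0829). DKO 2 lay just below the intact range for Saa2 and within it for Saa1. The copies are near-identical and may share reads. Orm2 had the same order, with 51.5, 12 and 64.2 CPM in DKO against 13.2 to 20 (adjusted p = 0.18). Socs3, the feedback inhibitor of cytokine signalling, was high in DKO 2 instead, at 34.5, 122 and 36.2 CPM.

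Hamp2, a copy of the iron hormone hepcidin, fell. It had 12.8, 24.2 and 18.1 CPM in control, 8.12, 13.4 and 18.7 in MttpLKO and 4.02, 5.01 and 1.56 in DKO, without overlap (log2 fold change -2.15 ± 0.38 SE, adjusted p = 0.0368). Hamp, the main hepcidin gene, had 1012, 1147 and 1224 CPM in control, 1450.0, 2523 and 2650.4 in MttpLKO and 1077, 907 and 1009 in DKO. It was high in MttpLKO and in DKO at the level of control, with log2 fold changes of -0.18 against control (adjusted p = 0.803) and -1.15 against MttpLKO (adjusted p = 0.0436). Of 23 iron genes tested Hamp2 was the 1 called (0.148% of all genes were called lower). Its call ended without any 1 library but control 1, MttpLKO 1 or MttpLKO 3 (highest adjusted p = 0.141, without DKO 1), and the 2 copies may share reads.

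Liver genes that differ between the sexes were called mostly for their distance from MttpLKO. DESeq2 called 11 male-biased genes higher and 2 lower (186 and 100 of 14184 over all genes). By edgeR, of 43 male-biased genes 37 were tested and 6 called, all higher (0.331% of all genes), with a median log2 fold change of 0.67. The median was 0.22 against control, 1.09 against MttpLKO and -0.91 in MttpLKO against control. Of the 6, Cyp4a12a alone, a male-specific fatty acid hydroxylase, set DKO apart. It had 319.9, 314 and 306 CPM in control, 243, 186 and 201 in MttpLKO and 390.1, 377 and 387 in DKO (log2 fold change 0.59 ± 0.10 SE, adjusted p = 0.0299), and log2 fold changes of 0.30 against control (adjusted p = 0.365) and 0.88 against MttpLKO (adjusted p = 0.00794). The other 5 called were major urinary proteins, Mup9, Mup11, Mup14, Mup17 and Mup18, near-identical copies on chromosome 4 whose DKO values overlapped control. Mup11, for example, had 531, 649.6 and 776 CPM in control, 266, 297 and 247 in MttpLKO and 631, 1146 and 1295 in DKO. Mup20 differed in direction, with 1143, 1129 and 990.4 CPM in DKO, below all intact libraries (1320.3 to 2095), and just missed the threshold (log2 fold change -0.56 ± 0.11 SE, adjusted p = 0.0559).

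Of 30 female-biased genes 22 were tested and 2 called, both lower (0.148% of all genes) and both setting DKO apart. The list as a whole had no common direction, with 11 values above 0 and 11 below and 4 each way at an unadjusted p under 0.05, and its median was 0.46 against control and -0.64 against MttpLKO. Cyp2a4, a steroid hydroxylase, had 13.5, 49.3 and 34.2 CPM in control, 83, 71.3 and 207 in MttpLKO and 109, 147 and 193 in DKO, above control and overlapping MttpLKO (log2 fold change 1.26 ± 0.39 SE, adjusted p = 0.246). One of the called genes, Slco1a4, imports bile acids, steroid conjugates and drugs into hepatocytes. It had 34.1, 65.3 and 60.3 CPM in control, 64.4, 74.4 and 29.7 in MttpLKO and 12.9, 12.6 and 5.97 in DKO, so the highest DKO library was below the lowest intact one, MttpLKO 3 (log2 fold change -2.38 ± 0.36 SE, adjusted p = 0.0163). Stat5a, one of the transcription factors through which growth hormone acts on liver, had 14.1, 15.9 and 17.6 CPM in control, 15.1, 12.9 and 12.3 in MttpLKO and 21.6, 23.1 and 23.9 in DKO (log2 fold change 0.65 ± 0.11 SE, adjusted p = 0.0257). It was the 1 called gene of 17 tested in the growth hormone list (0.331% of all genes were called higher). Its call ended without control 2, MttpLKO 2, DKO 1, DKO 2 or DKO 3 (highest adjusted p = 0.0824, without DKO 3). Stat5b had 49.4, 56.5 and 54.1 CPM in DKO within or near the 37.3 to 52 of the others (adjusted p = 0.494).

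Of the remaining genes called against each intact genotype, Dio1, the deiodinase that converts thyroxine to its active form, had 102, 109 and 123 CPM in control, 86.6, 98.4 and 89.7 in MttpLKO and 164, 196 and 211 in DKO (log2 fold change 0.92 ± 0.10 SE, adjusted p = 0.00304). Tmem98, a transmembrane protein, had 10.8, 10.3 and 11.1 CPM in control, 10.1, 9.72 and 10.2 in MttpLKO and 20.6, 21.4 and 21.5 in DKO, where the spread within genotypes was below 1 CPM (log2 fold change 1.03 ± 0.08 SE, adjusted p = 0.000244). Rarres1, a retinoid-responsive gene, had 89.5, 90.3 and 100.4 CPM in DKO against 47.2 to 64.8 (log2 fold change 0.74 ± 0.09 SE, adjusted p = 0.00535). Slc35f2, a solute carrier, had 3.82, 4.54 and 4.86 CPM against 0.847 to 1.63 (log2 fold change 1.85 ± 0.24 SE, adjusted p = 0.00611). Abca8b, an ATP-binding cassette lipid transporter, was lower, at 22.5, 22.8 and 24.5 CPM against 34.4 to 45.2 (log2 fold change -0.69 ± 0.10 SE, adjusted p = 0.0101). In all 5 the 3 DKO libraries lay outside the intact range, with fold sizes from 1.61 to 3.61.

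The others were transcripts of low count. Wfdc12, a secreted protein with a whey acidic protein domain, had 2.25, 2.79 and 3.03 CPM in DKO against 0.0727 to 0.552 (log2 fold change 3.17 ± 0.30 SE, adjusted p = 0.000746). Gm11868 had 154 counts in DKO and 2 in the intact libraries, a ratio of 176 with a 95% counting interval of 47.9 to 1.47e+03. For 2310057J18Rik the counts were 271 and 12, a ratio of 51.6 (29.1 to 101), and DKO 3 held most of them, with 1.29, 1.46 and 9.13 CPM in the DKO libraries. In the other direction 1010001B22Rik had 82 counts in the intact libraries and 1 in DKO, a ratio of 35.9 (6.26 to 1.43e+03). These 3 models have no function given in the tables. Gm11868 and 2310057J18Rik passed the filter of 0.5 CPM through the DKO libraries alone.

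Further genes set DKO apart without passing in both single comparisons. Cpe, which trims peptide hormones, had 1.5, 0.833 and 1.27 CPM in control, 2.28, 3.79 and 4.9 in MttpLKO and 8.72, 9.77 and 12.7 in DKO, in the order control, MttpLKO, DKO (log2 fold change 2.31 ± 0.24 SE, adjusted p = 0.00146). Col4a3, a basement membrane collagen chain, had the same order, at 1.82, 1.67 and 1.89 CPM in control, 3.42, 3.24 and 5.93 in MttpLKO and 7.47, 7.11 and 9.58 in DKO (log2 fold change 1.55 ± 0.20 SE, adjusted p = 0.00654). It overlaps an opposite-strand transcript, C430014B12Rik, that was not called. Slc41a2, a magnesium transporter, had 12.9, 11 and 11.6 CPM in control, 4.63, 5.74 and 6.26 in MttpLKO and 26, 17.4 and 48.4 in DKO (log2 fold change 1.92 ± 0.25 SE, adjusted p = 0.00611), and the carboxylesterase Ces4a had 4.21, 3.82 and 3.49 CPM in control, 1.14, 1.36 and 3.54 in MttpLKO and 8.48, 11.8 and 12.9 in DKO (log2 fold change 1.99 ± 0.28 SE, adjusted p = 0.0112). In both, MttpLKO was lowest. The pseudogene Cyp2d41-ps had 6.91, 7.84 and 13 CPM in DKO against 2.28 to 4 (log2 fold change 1.57 ± 0.19 SE, adjusted p = 0.00535), and reads may be shared with other Cyp2d genes. Ces4a lost its call without DKO 2 or DKO 3 (highest adjusted p = 0.0685).

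Smaller or less stable rises were those of Casc4 (6.9 to 8.95 CPM in DKO against 3.29 to 4.9, adjusted p = 0.0101), the interferon-inducible Ifi27l2b (33.3 to 54.6 against 8.82 to 26.3, adjusted p = 0.0186) and the Wnt receptor Fzd7 (18.4 to 36 against 10.9 to 14.6, adjusted p = 0.0424). The transglutaminase Tgm2 (107 to 125 against 64.7 to 85.8 CPM, adjusted p = 0.0389) and the adaptor Cmip (116 to 132 against 81.7 to 100.4, adjusted p = 0.033) were at high levels with folds near 1.51 and 1.43. Fhl3 (3.61 to 4.86 against 0.691 to 2.87 CPM), Ugt2b37 (1.8 to 3.54 against 0.606 to 1.38), Erich4 (1.74 to 2.83 against 0.0727 to 1.69), Zan (0.964 to 1.03 against 0.0364 to 0.342) and Pla2g2e (47 counts in DKO, 6 in the intact libraries) were of low level, with adjusted p of 0.0303, 0.0463, 0.00611, 0.0351 and 0.0202. Zan and Pla2g2e passed the filter of 0.5 CPM through the DKO libraries alone, so neither was tested with a DKO library left out. Leaving out 1 library ended the call for Casc4 without DKO 1 or DKO 3 (highest adjusted p = 0.0654, without DKO 1), Ifi27l2b without control 1, control 2, DKO 1 or DKO 2 (highest adjusted p = 0.073, without DKO 2), Fzd7 without any 1 library but MttpLKO 3 or DKO 3 (highest adjusted p = 0.12, without control 2), Tgm2 without any 1 library but MttpLKO 1, MttpLKO 2 or MttpLKO 3 (highest adjusted p = 0.157, without DKO 1), Cmip without any 1 library but MttpLKO 1, MttpLKO 3 or DKO 3 (highest adjusted p = 0.141, without DKO 1), Fhl3 without any 1 library but MttpLKO 3 (highest adjusted p = 0.153, without DKO 1), Ugt2b37 without any 1 library but control 1, MttpLKO 3 or DKO 2 (highest adjusted p = 0.206, without DKO 1) and Zan without control 1, control 3 or MttpLKO 2 (highest adjusted p = 0.0895, without control 3).

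Among the falls, Slc20a1, a sodium-phosphate cotransporter, had 57.2, 54.6 and 61.6 CPM in control, 42.7, 43.2 and 44.2 in MttpLKO and 37.8, 35.1 and 31.2 in DKO, in the order control, MttpLKO, DKO (log2 fold change -0.53 ± 0.09 SE, adjusted p = 0.03). Dsg1c, a desmosomal cadherin, had 3.41, 4.37 and 2.85 CPM in DKO against 5.82 to 13.1 (adjusted p = 0.0336), and Isoc2b, an isochorismatase-domain protein, had 14.7, 15.6 and 9.93 against 19.6 to 27.2 (adjusted p = 0.0465). The models Gm15446 and Gm28513 fell from 0.883 to 2.16 to 0.134 to 0.343 CPM and from 1.44 to 3.56 to 0.402 to 0.9 (adjusted p of 0.0148 and 0.0315). Gm28513 overlaps Rgs16, a regulator of G protein signalling, by 1917 bases on the opposite strand. Rgs16 had a log2 fold change of -1.40 (adjusted p = 0.0895), and the reads of the pair cannot be told apart without the strand setting. The calls ended for Slc20a1 without any 1 library but MttpLKO 3 (highest adjusted p = 0.128, without DKO 3), Dsg1c without any 1 library but MttpLKO 3 (highest adjusted p = 0.154, without DKO 3), Isoc2b without any 1 library but MttpLKO 3 (highest adjusted p = 0.154, without control 2), Gm15446 without DKO 1 or DKO 3 (highest adjusted p = 0.0896, without DKO 1) and Gm28513 without any 1 library but control 3, MttpLKO 2 or MttpLKO 3 (highest adjusted p = 0.13, without DKO 1), and for Mttp without DKO 2 or DKO 3 (highest adjusted p = 0.0609, without DKO 3).

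The other 15 called genes did not set DKO apart. In 4 of them DKO was at the level of control and MttpLKO stood out. Gm13394 had 0.283, 0.265 and 0.364 CPM in control, 92.4, 69.7 and 79.5 in MttpLKO and 0.281, 0.3 and 0.267 in DKO, and the complement genes C1s2 and C1rb and the drug-metabolizing enzyme Tpmt had the same pattern, with 0.129 to 0.267, 0 to 0.171 and 35.7 to 42 CPM in DKO against 37.4 to 40.3, 29.8 to 33.2 and 90.3 to 107 in MttpLKO. C1s2 and C1rb are near-identical to other complement genes. In the 6 others outside the Mup family, Gh, Akr1c18, Igdcc4, Hoxc8, Kif5c and Rpl34, DKO was away from control and overlapped MttpLKO, in Akr1c18, Igdcc4 and Kif5c through MttpLKO 3 alone. Gh, growth hormone, had 0.121, 0 and 0.0727 CPM in control, 5.43, 17.1 and 14 in MttpLKO and 15.3, 17.7 and 11.8 in DKO. Akr1c18, a steroid reductase, had 0.769, 0.947 and 1.56 CPM in control, 4.21, 7.73 and 29.2 in MttpLKO and 22.8, 28.6 and 26.9 in DKO, where MttpLKO 3 alone reached the DKO values. Rpl34, a ribosomal protein gene with many pseudogene copies, had 55.9 to 65 CPM in control and 4.62 to 5.53 in DKO. The last 5 were the Mup genes above. Of these 15 genes 9 were also called in MttpLKO against control, a comparison with 49 calls (0.345%), whereas of the 53 that set DKO apart 2 were, Mttp and Erich4.

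Of 57 tumour marker genes 46 were tested and 2 called, Lcn2 and Akr1c18, both higher (0.331% of all genes), and of these Lcn2 alone set DKO apart. DESeq2 called 6, all higher (1.31% of all genes). The median log2 fold change was 0.29, and it was 0.49 without MttpLKO 3 and 0.14 without DKO 1. It was 0.435 against control, 0 against MttpLKO and 0.395 in MttpLKO against control, so the list as a whole did not set DKO apart from MttpLKO. Gpc3, a glypican that marks hepatocellular carcinoma, had 2.18, 3.33 and 2.98 CPM in control, 4.44, 6.88 and 12.5 in MttpLKO and 11.9, 10.8 and 9.22 in DKO, shared with MttpLKO 3 (log2 fold change 1.17 ± 0.27 SE, adjusted p = 0.11). Of 42 cell cycle genes tested 0 were called by edgeR and 1 was higher at an unadjusted p under 0.05 (6.16% of all genes). The median was 0.18, and 0.36 without MttpLKO 3. It was 0.337 against control, -0.031 against MttpLKO and 0.516 in MttpLKO against control. Aurka, a mitotic kinase, had 3.13, 5.1 and 3.21 CPM in DKO against 2.06 to 3.13 (adjusted p = 0.357). Of 42 extracellular matrix genes 0 were called by edgeR and 1 was higher at an unadjusted p under 0.05. The median was -0.01 with 18 of 42 above 0 (48.3% of all genes), and without MttpLKO 3 it was 0.13 with 34 of 42 above 0. Col12a1 (4.02, 4.03 and 4.28 CPM against 2.59 to 3.53, adjusted p = 0.295) and Postn (5.42, 3.9 and 3.74 against 3.83 to 7.96, adjusted p = 0.486) had the smallest p in that list.

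**Figure D5:**
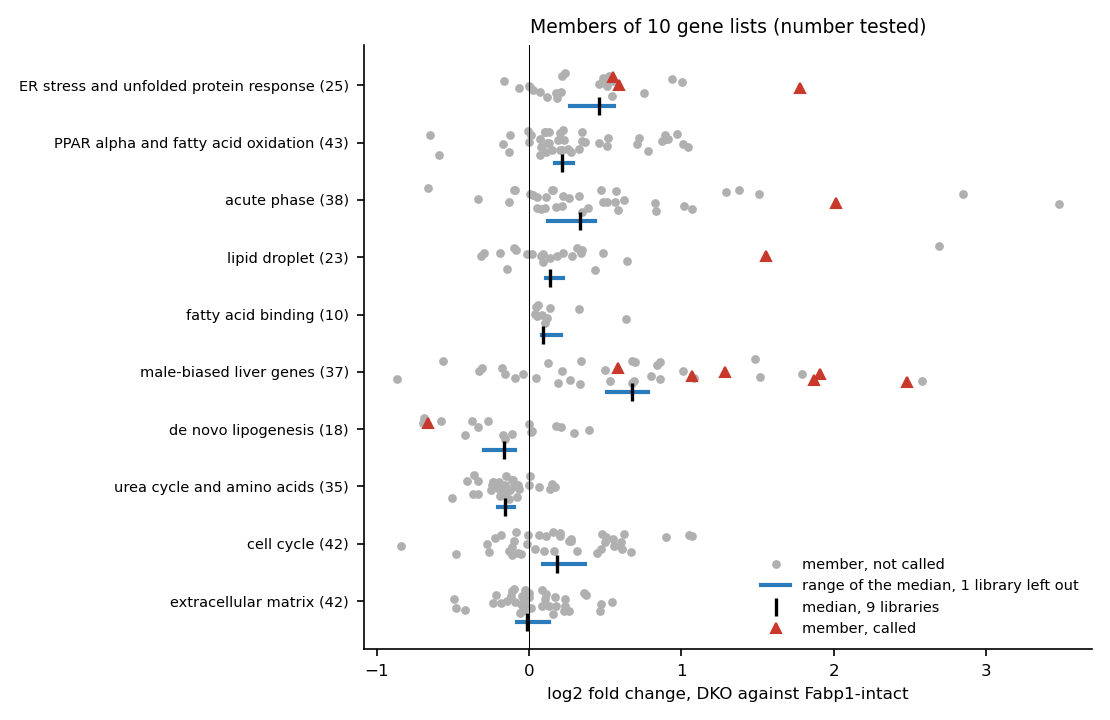
Log2 fold change in DKO against the Fabp1-intact libraries (x axis) for every tested member of 10 gene lists (y axis, number tested in parentheses). Red triangles are called members and grey circles the others. The black tick is the median over 9 libraries and the blue bar its range with 1 library left out. The ER list has its median at 0.46 with a bar from 0.27 to 0.56, and the urea cycle list lies at -0.16 with a bar from -0.21 to -0.10.

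Other lists had 0 calls by edgeR. Of 35 genes of the urea cycle and amino acid metabolism 30 had a value below 0 (51.7% of all genes), 5 were lower at an unadjusted p under 0.05 (5.32% of all genes) and the median was -0.16. Asl and Ass1, which make arginine from citrulline, had 924, 844 and 1031 and 943, 769.7 and 860.4 CPM in DKO against 1002 to 1613 and 905 to 1107 (adjusted p of 0.224 and 0.39). All 13 Kupffer cell markers had a value above 0 (48.3% of all genes). At an unadjusted p under 0.05, 2 were higher (6.16% of all genes). Their median was 0.38, and it was 0.24 without MttpLKO 1 and 0.79 without MttpLKO 3. It was 0.19 against control, 0.86 against MttpLKO and -0.75 in MttpLKO against control, so most of the distance was from MttpLKO. Their summed level was 114 to 258 CPM in DKO, 167 to 227 in control and 64.7 to 217 in MttpLKO, so the groups overlapped. Interferon and antigen presentation genes had 33 of 46 values below 0 (51.7% of all genes), 2 of them at an unadjusted p under 0.05 (5.32% of all genes), and a median of -0.11. Without MttpLKO 3 the median was 0 with 23 of 46 above 0, and without DKO 3 it was 0.02. The immediate early genes had 14 of 22 below 0 (51.7% of all genes), 4 of them at an unadjusted p under 0.05 (5.32% of all genes). Among these 4 was Jun, an AP-1 subunit, with 43.5, 46.4 and 71.5 CPM in DKO against 79.7 to 145 (adjusted p = 0.0719). DESeq2 called 2 members of the urea cycle list, both lower, and 3 of the immediate early list, 1 higher and 2 lower. It called 0 of the Kupffer, interferon, cell cycle and matrix lists. Over all genes it called 286 of 14184, 186 higher and 100 lower. Just outside the threshold of 0.05 lay Cyp4a12b (adjusted p = 0.0518) and Cidea (0.0526), and just inside it Dnajb11 (0.0498).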

How the data were processed

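RNA from 9 pools of mouse liver, 3 per genotype and 3 mice per pool, was sequenced after oligo(dT) selection, per the labels' protocols. The authors deposited whole-number read counts per gene with CPM (counts scaled to the library total) and RPKM (CPM per kilobase of gene) in the same tables, per the file headers. The submitters' processing notes name STAR 2.0.4b, Subread and also featureCounts 1.4.5. The build, the strand setting and the treatment of reads matching several genes were not given in the sources used here. A symbol was found for 97.26% of gene identifiers, and coordinates are those of the deposited tables. Of the 68 called genes 55 had the same start and end in GENCODE M21 (GRCm38).

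Genes with at least 0.5 CPM in at least 3 libraries were kept (14192). Counts were scaled by TMM and fitted in edgeR 4.0.16 (R 4.3.3) with 3 genotype means, and the contrast was DKO minus the mean of control and MttpLKO. The quasi-likelihood F test was adjusted by Benjamini-Hochberg over all genes, with a threshold of 0.05. The biological coefficient of variation was 18.2%. CPM values in the text are TMM-scaled, while RPKM values are the authors' deposited ones and entered no test. Counting intervals are exact at 95% and floors are 3 counts. The script was tested on simulated data. Alternatives were other scaling, filters, DESeq2 1.42.0, limma-voom (limma 3.58.1), a 2-group fit, a replicate block and leaving out each library. Replicate numbers were treated as plain labels, since same-numbered libraries did not deviate together. No batch is given in the labels.

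The members and gene lists were chosen with earlier results of these data known. The rule for named genes took Fabp1, Mttp, the 15 largest rises and falls among genes setting DKO apart with a mean of at least 5 CPM, up to 3 called members of each list, the 2 smallest p of 8 lists, called genes within 15 Mb of Fabp1 and those of dense windows. Other genes were named after their values were seen. The values of a few genes that entered the fit and the counts are not reported here.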

Additional observations from a re-analysis of the deposited data

Results flagged for a closer look

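In 47 genes, the 6 Fabp1-intact libraries of each were searched for a single library far from the other 5. Chance flags about 1 in 20 such groups, and 3 were found, all in MttpLKO. Abca8b had 45.2 CPM in MttpLKO 1 against 34.4 to 37 in the other 5 intact libraries, on the side away from DKO. Akr1c18 had 29.2 CPM in MttpLKO 3 against 0.769 to 7.73, a value within the DKO range. Ifi27l2b had 26.3 CPM in MttpLKO 3 against 8.82 to 13.9, nearer to DKO than the other intact libraries were.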

How the results depend on the processing

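Of 68 genes called in DKO against the intact libraries, 53 that set DKO apart, 49 called against control and 59 against MttpLKO, the corresponding counts without a filter on low counts were 221, 131, 201 and 180, and with DESeq2 286, 208, 260 and 216. DESeq2 gave no adjusted p for 8 genes. All 68 stayed called in both. The 2-group fit called 25. Without 1 library the counts ran from 36 to 131, from 31 to 118, from 14 to 90 and from 16 to 67, highest without MttpLKO 3 in each case. The cause was not tested, beyond the smaller number of libraries. Where an arm keeps 2 libraries, all 3 genotypes share the estimate of the spread. Other scalings, the filterByExpr filter and limma-voom kept every count within 1.5 times. For the 49 genes taken by the naming rule, 870 values were recomputed: 680 kept their side of the threshold, 179 lost the call, 11 gained it and 0 changed direction. A 16-gene core of the 68 stayed called in each of the 18 alternatives in which the gene was tested. Same-numbered libraries did not deviate together (correlation of deviations from -0.241 to 0.081 over 9 same-numbered pairs), and with the replicate block the 4 counts were 62, 43, 39 and 44. Of the 68 called genes 49 stayed called with the block, and of the 53 that set DKO apart 36 still did. DKO libraries were the shallowest, so genes near 0.5 CPM rest on the fewest counts there.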

Other observations

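Among detoxification genes, which hepatocytes use to oxidize and conjugate drugs, 47 of 48 were tested and 30 had a value below 0 in DKO (51.7% of all genes). Tpmt was the 1 called (0.148% of all genes were called lower). It did not set DKO apart, since DKO was at the level of control and MttpLKO stood out. The median log2 fold change of the list was -0.17 (-0.20 to -0.07 with 1 library left out). Cyp2a5, the coumarin hydroxylase, had 1274, 1226 and 961 CPM in control, 1862, 1635 and 926 in MttpLKO and 651, 901 and 693 in DKO. The highest DKO library was just below the lowest intact one, and the gene was not called (adjusted p = 0.175). Gstm2, a glutathione transferase, had 42.7, 45.7 and 28.7 CPM in DKO against 57.1 to 80.8 (adjusted p = 0.0825). Cyp1a1, which aryl hydrocarbon receptor ligands induce, had 1.08, 1.54 and 14.4 CPM in DKO and 0.847 to 1.45 elsewhere, so DKO 3 alone was high (adjusted p = 0.204).

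In glucose metabolism 33 genes were tested and 0 called by edgeR, with 6 lower at an unadjusted p under 0.05 (5.32% of all genes). Slc37a4, the glucose-6-phosphate transporter of the ER, had 162, 186 and 216 CPM in DKO, all below the 231 to 292 of the intact libraries (adjusted p = 0.133). Of lipoprotein genes, chosen after their values were seen, Apoa5, an activator of lipoprotein lipase, had 944, 1133 and 1307 CPM against 1372 to 1993 (adjusted p = 0.146), and Tm6sf2, which promotes VLDL lipidation, had 36.6, 38.3 and 37.5 against 42.9 to 66.2 (adjusted p = 0.118). Gdf15, a stress hormone, had 61.1, 108 and 90.6 CPM in control, 134, 158 and 53.2 in MttpLKO and 36.5, 29.8 and 55.8 in DKO. DKO 1 and DKO 2 were below every intact library and DKO 3 was within their range (adjusted p = 0.165). Lpl, lipoprotein lipase, had 18.1, 17.9 and 15.4 CPM in control, 10.5, 11.2 and 26.4 in MttpLKO and 30.4, 30 and 28.3 in DKO, with DKO above all others and MttpLKO 3 nearest (adjusted p = 0.218).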
